A study of Mus musculus with 10 samples.

Results

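The interferon-induced gene families described here are 63 genes, out of 19505 genes that the arrays measured with a symbol. They were taken by symbol: the Ifi genes with a number, Ifih1, the Ifit and Ifitm genes, the numbered Isg, Oas, Gbp, Irf and Mx genes, and Bst2, Usp18, Rsad2, Ddx58 and Cmpk2. Irf2bp1, Irf2bp2, Irf2bpl, Isg20l2 and Ifitm5 entered through their symbols alone. RefSeq lists Mx1, Mx2 and Oas1b of the mouse reference strain as transcribed pseudogenes. Each of the 63 had 1 probe set, so no choice between probe sets had to be made.

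The levels came from RNA of mouse intestinal organoids, epithelial structures grown in culture from intestinal tissue, each measured on 1 array. There were 5 samples labelled KO for IκBα and 5 labelled WT, all marked P6, a mark that the labels do not explain. IκBα, encoded by Nfkbia, binds NF-κB in the cytoplasm and holds it inactive. The labels name neither the allele, the way it was deleted, the strain nor the age of the mice, and they do not say whether each sample came from a separate animal. The p-values below therefore measure only how these samples vary, and that variation may be technical. Values are log2 levels as deposited, a change is the KO mean minus the WT mean, and 1 unit is a doubling.

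Nfkbia averaged 5.06 ± 0.31 in KO samples and 9.19 ± 0.38 in WT samples (SD, n = 5 each), a change of -4.13. The Y-linked genes Eif2s3y, Uty and Kdm5d lay below the negative-control median of every KO array and of no WT array. Against that median they were at least 22.6-fold, 8.65-fold and 2.74-fold lower in KO, so the groups differ in Y-linked signal as well as in the label. The epithelial markers were high in both groups, with a mean level over 8 genes of 10.95 to 11.30 in KO samples and 11.18 to 11.37 in WT samples. Within that list Cdh1, Krt8 and Krt18 were higher in KO and Vil1, Cdx2 and Cldn7 lower, Cdx2 with a change of -2.16. Markers of mature enterocytes averaged 5.38 to 5.55 in KO samples and 10.68 to 12.60 in WT samples over 7 genes, and all 7 were lower in KO. The 4 Paneth cell markers averaged 4.69 to 4.82 in KO samples and 11.72 to 12.15 in WT samples, and all 4 were lower. Of 5 goblet cell markers 3 were lower, with means of 7.51 to 11.16 in KO samples and 9.97 to 11.47 in WT samples. The 12 measured of 14 immune cell markers averaged 5.22 to 5.53 in KO samples and 5.39 to 5.56 in WT samples. Ptprc, the common leukocyte antigen, lay at 5.37 to 5.65 in KO and 5.43 to 6.00 in WT samples, while Csf1r and Itgam were higher in KO by 1.53 and 1.56 and Lyz2 changed by -4.18. Whether these differences in cell content or in Y-linked signal have a part in the results below was not tested. In bulk samples, fewer cells of a type and less RNA per cell cannot be told apart.

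Interferons are secreted proteins, and cells release those of type I and type III on sensing foreign nucleic acid. Type I and type III interferons act through JAK kinases on a complex that holds STAT2 and IRF9 and binds the interferon-stimulated response element (ISRE), and interferon gamma acts at the GAS element. The genes so induced encode sensors, nucleases, GTPases and membrane proteins that hold back viruses and bacteria, and in the intestinal epithelium type III interferon is a main inducer. NF-κB takes part in switching on the gene for interferon beta and binds the promoters of some of these genes itself.

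RefSeq promoter windows (build GRCm38.p6, 250 bases before to 50 after the start) were found for 49 of the 63 genes. A core ISRE, written as TTTC, any 2 bases and TTTC, or on the other strand as GAAA, any 2 bases and GAAA, stood in 25 of the 49, or 51.0%, against 3.99% of 27025 genes with a window. The GAS element, TTCNNNGAA, stood in 12 of 49 (24.5%) against 9.55% of genes, and the κB consensus in 12 of 49 (24.5%), also against 9.55%. Matches were sought on both strands, neighbouring ISRE matches can overlap, and overlap between different motifs was allowed. A match is a description of the letters and not a measured binding site. Of the genes that passed the test below as higher in KO, 5 of the 8 with a window held an ISRE, and of those that passed as lower, 2 of 5. Of those with no call it was 18 of 36. The κB consensus stood in 3 of the 8, 2 of the 5 and 7 of the 36.

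The upstream 250 bases of 6 of these windows are shown because their genes stand for the patterns described below. Isg15 and Ifit3 were high in a single KO sample, Ifi211, Bst2 and Gbp2 were higher in all KO samples, and Irf2 was lower in all of them. Each is given 5′ to 3′ on the strand of its gene, in lower case, with matches to the ISRE and to the κB consensus in capitals. They lie at chr4:156200819-156201068 (minus strand) for Isg15, chr19:34583279-34583528 (plus strand) for Ifit3, chr1:173913047-173913296 (minus strand) for Ifi211, chr8:71537473-71537722 (minus strand) for Bst2, chr3:142620413-142620662 (plus strand) for Gbp2 and chr8:46739495-46739744 (plus strand) for Irf2.
Isg15: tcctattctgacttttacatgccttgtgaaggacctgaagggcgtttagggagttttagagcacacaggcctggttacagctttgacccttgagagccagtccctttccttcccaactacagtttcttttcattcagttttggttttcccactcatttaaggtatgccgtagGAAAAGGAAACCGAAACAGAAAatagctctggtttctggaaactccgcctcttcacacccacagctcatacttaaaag
Ifit3: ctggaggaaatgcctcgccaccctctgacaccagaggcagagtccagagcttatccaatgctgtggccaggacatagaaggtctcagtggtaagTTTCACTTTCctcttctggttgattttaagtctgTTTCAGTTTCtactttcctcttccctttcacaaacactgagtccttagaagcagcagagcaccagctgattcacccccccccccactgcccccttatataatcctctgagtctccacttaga
Ifi211: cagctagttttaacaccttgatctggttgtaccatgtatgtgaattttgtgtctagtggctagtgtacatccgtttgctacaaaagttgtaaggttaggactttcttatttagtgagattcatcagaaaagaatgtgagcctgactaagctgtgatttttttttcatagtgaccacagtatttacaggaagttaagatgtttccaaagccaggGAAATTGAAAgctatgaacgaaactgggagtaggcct
Bst2: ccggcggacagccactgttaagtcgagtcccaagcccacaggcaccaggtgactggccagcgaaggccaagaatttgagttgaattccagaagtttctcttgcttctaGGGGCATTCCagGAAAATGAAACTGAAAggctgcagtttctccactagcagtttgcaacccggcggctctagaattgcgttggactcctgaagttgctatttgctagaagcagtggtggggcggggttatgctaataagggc
Gbp2: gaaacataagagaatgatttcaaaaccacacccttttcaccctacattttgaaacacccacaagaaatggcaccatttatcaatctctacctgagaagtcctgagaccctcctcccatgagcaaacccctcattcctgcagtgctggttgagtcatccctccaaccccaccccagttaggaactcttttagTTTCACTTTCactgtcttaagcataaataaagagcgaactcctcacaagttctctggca
Irf2: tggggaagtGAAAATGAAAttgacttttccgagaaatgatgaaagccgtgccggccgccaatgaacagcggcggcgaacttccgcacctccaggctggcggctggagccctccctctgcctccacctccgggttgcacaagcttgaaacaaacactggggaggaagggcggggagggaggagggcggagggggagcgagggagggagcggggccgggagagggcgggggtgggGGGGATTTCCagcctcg
In Isg15 the capitals are 3 overlapping ISRE matches that begin 78, 72 and 66 bases before the start. In Ifit3 they are separate ISRE matches 156 and 122 bases before it. Ifi211 has 1 ISRE match, 37 bases before its start, and no κB match. In Bst2 a κB match that begins 142 bases before the start is followed by overlapping ISRE matches at 130 and 124. Gbp2 has an ISRE match 59 bases before its start, and its κB match begins 8 bases after the start, beyond the stretch shown. In Irf2 the ISRE match lies 241 bases and the κB match 17 bases before the start.

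KO replicate 1 stood apart from the other 9 arrays in these genes, and results are therefore given with and without it. It held the highest level of the 10 arrays for 30 of the 63 genes (47.6%), against 8.65% of all probe sets with a symbol. For 15 of the 63 (23.8%) it lay so far above the other 4 KO samples that it passed Dixon's outlier ratio of 0.71, against 0.664% of all probe sets. Its members lay a median of 0.56 above the KO median, whereas the same figure was -0.10 to 0.03 in the other 9 arrays and 0 over all genes in KO replicate 1. Its negative-control probe sets had a median of 5.10, against 4.30 to 4.83 in the other KO arrays and 4.60 to 4.89 in the WT arrays. Itgam, a myeloid integrin, stood at 8.37 in KO replicate 1, against 6.14 to 6.64 in the other KO samples. Of the other measured genes of the immune list, KO replicate 1 was the highest KO sample for Ptprc, Cd8a and Cd79a only. Csf1r stood at 7.13 there, against 6.14 to 7.59 in the other KO samples, and Lyz2 at 4.32, against 4.57 to 4.78. Adgre1 and Itgax were not highest in KO replicate 1 either. Lyz2, Adgre1, Itgax and Cd8a lay below the negative-control median of that array, so little could be seen in them there. Ptprc stood at 5.65 in KO replicate 1, against 5.37 to 5.50 in the other KO samples. Cd8a stood at 5.06, against 4.54 to 4.91, and Cd79a at 5.68, against 4.86 to 5.46. The mean of the immune list was 5.53 in KO replicate 1, the highest of the KO samples. The mean of the 4 tuft cell markers was 6.725 in KO replicate 1 and that of the 7 measured mesenchyme markers 5.45, each the highest of the KO samples. The means of the epithelial, endothelial, enterocyte, Paneth and goblet lists were not the highest there. The part of these values in the high sample was not tested.

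**Figure D1:**
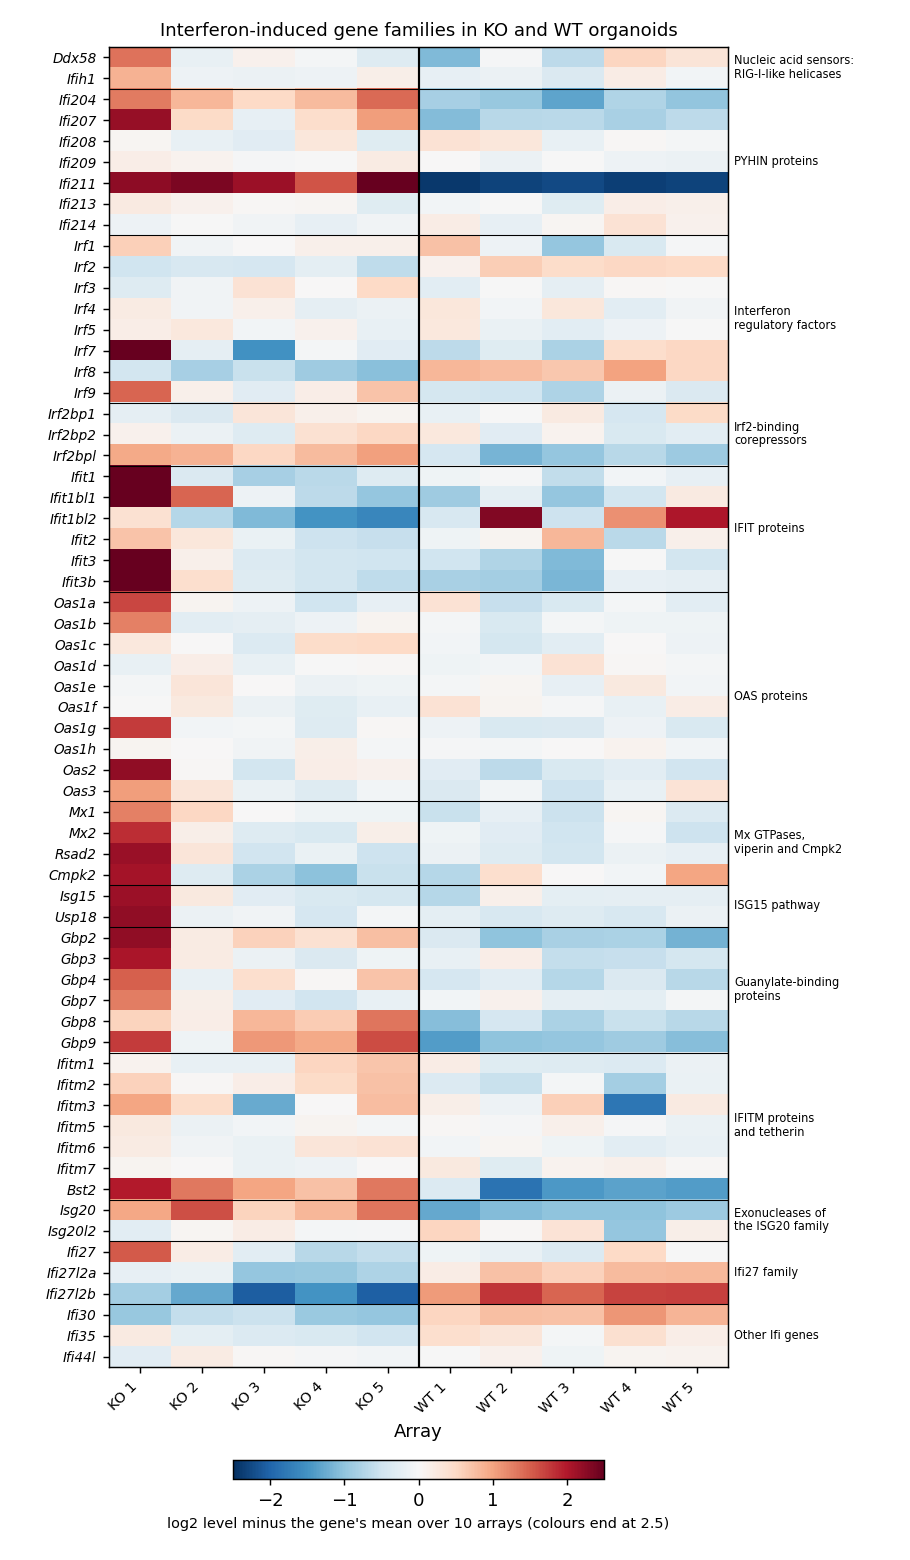
Level of each of the 63 genes in the 10 arrays (columns, KO replicates 1 to 5 left of WT replicates 1 to 5), drawn as the difference from that gene's own mean on the log2 scale, with genes (rows) ordered by role. The first KO column is the highest of the 10 for 30 of the 63 genes, while Ifi27l2a, Ifi27l2b, Ifi30, Irf8 and Irf2 are low across all 5 KO columns.

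Of the 63 genes, 12 were higher and 7 lower in KO at a Benjamini-Hochberg adjusted p under 0.05 in limma, and 44 did not pass. The 19 compare with 26.7% of all probe sets called in either direction. The 12 are 19.0% of the genes, against 15.0% of all probe sets tested, and the 7 are 11.1%, against 11.7%. These 2 background shares, 15.0% higher and 11.7% lower, also apply to the counts by family below. The shares of the 63 genes are near the background. For 16 of the 63 (25.4%) the KO and WT values did not overlap, against 21.4% of all probe sets. The median change was 0.30 over the 63 genes and -0.01 over all genes. Without KO replicate 1 the median was 0.08, against -0.02 over all genes, and the same 19 genes passed in the same directions, with 13.9% of all probe sets then called higher and 9.93% lower.

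The PYHIN proteins bind DNA in the nucleus and the cytoplasm, and Ifi204 is known in the mouse as a DNA sensor that acts through STING. Of the 7 measured, 3 (42.9%) were higher in KO, against 15.0% of all probe sets, and none was lower, against 11.7%. Ifi211 stood at 7.86, 7.98, 7.76, 7.20 and 8.98 in KO replicates 1 to 5, against 3.22, 3.32, 3.38, 3.27 and 3.31 in WT replicates 1 to 5. All 5 WT values lay below the median of the negative-control probe sets on their arrays, so the WT level is only a bound. Its measured change was 4.66 (SE 0.26, adjusted p = 8.73e-08, limma), the largest among the 63 genes. With each WT array set to its negative-control median, the KO mean was at least 9.34-fold higher.

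Ifi204 stood at 8.28, 7.81, 7.47, 7.77 and 8.39 in KO samples, against 6.14, 6.03, 5.66, 6.22 and 5.99 in WT samples. Every KO value lay above every WT value, with a change of 1.93 (SE 0.18, adjusted p = 8.31e-06, limma). Ifi207 stood at 6.86, 5.17, 4.48, 5.13 and 5.74 in KO, against 3.61, 3.99, 4.02, 3.88 and 4.04 in WT. The groups were again apart, and KO replicate 1 was the highest. The measured change of Ifi207 was 1.57 (SE 0.35, adjusted p = 0.0054, limma), and 1.22 without that sample. Its WT values, and that of 1 KO sample, lay below the negative-control median, and the KO mean was at least 1.67-fold higher than that median. In RefSeq these 3 come last of the 7 along chromosome 1, in an order that leaves out any genes between them. The other 4, Ifi214, Ifi213, Ifi209 and Ifi208, did not pass, and their changes ran between -0.21 and 0.17. Ifi208 and Ifi214 were below the negative-control median on all 10 arrays, so no change in them could be seen. Ifi209 was below it in 4 KO and 5 WT arrays and Ifi213 in 4 KO and 4 WT arrays, so little could be seen in these either. Ifi209 lay at 4.34 to 4.57 in KO and 4.22 to 4.39 in WT, and Ifi214, with the smallest p among the 4, at 3.74 to 3.94 in KO and 3.75 to 4.31 in WT. Aim2, the PYHIN sensor of the inflammasome, lies outside the rule by symbol and was lower in KO, with a change of -1.14 (adjusted p = 0.00586, limma).

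The RIG-I-like helicases Ddx58 (RIG-I) and Ifih1 (MDA5) sense viral RNA in the cytoplasm. Neither passed the limma test, and neither had an unadjusted p under 0.05. Ddx58 stood at 8.23 in KO replicate 1, at 6.55 to 6.98 in the other KO samples and at 5.76 to 7.41 in WT. Ifih1 stood at 9.14 in KO replicate 1, at 8.13 to 8.41 in the other KO samples and at 7.91 to 8.46 in WT. Apart from that 1 sample the KO values lay within the WT range for both.

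Guanylate-binding proteins are large GTPases that attack intracellular pathogens and their vacuoles, and interferon gamma is their classical inducer. Of the 6 measured, 4 (66.7%) were higher in KO, against 15.0% of all probe sets, and none was lower, against 11.7%. Gbp9 stood at 7.16, 5.31, 6.50, 6.35 and 7.05 in KO, against 4.02, 4.40, 4.44, 4.53 and 4.35 in WT. Gbp8 stood at 6.92, 6.52, 7.19, 6.99 and 7.70 in KO, against 5.30, 5.94, 5.56, 5.81 and 5.67 in WT. In both, all KO samples lay above all WT samples. The change was 2.13 for Gbp9 (SE 0.30, adjusted p = 0.000199, limma) and 1.41 for Gbp8 (SE 0.20, adjusted p = 0.00024, limma).

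Gbp4 stood at 7.48, 5.80, 6.41, 6.02 and 6.71 in KO, against 5.57, 5.72, 5.27, 5.62 and 5.29 in WT. The lowest KO value lay just above the highest WT value, and the change was 0.99 (SE 0.27, adjusted p = 0.0176, limma). Gbp2 stood at 7.24, 5.24, 5.61, 5.42 and 5.79 in KO, against 4.67, 4.02, 4.22, 4.25 and 3.86 in WT. KO replicate 1 was the highest by far, yet the other 4 KO samples also lay above WT. The change of Gbp2 was 1.65 (SE 0.33, adjusted p = 0.00264, limma) and without KO replicate 1 it was 1.31 (adjusted p = 0.000235, limma). Gbp2 and Gbp9 lay below the negative-control median in all WT arrays and in no KO array, so their WT levels are bounds too. Against that median in WT, Gbp2 was at least 2.19-fold and Gbp9 at least 3.34-fold higher in KO. Gbp3 and Gbp7 did not pass. Gbp3 stood at 6.63 in KO replicate 1, at 4.23 to 4.79 in the other KO samples and at 3.98 to 4.75 in WT. It was below the negative-control median in 3 KO and 4 WT arrays, so little could be seen in it. Gbp8, Gbp9 and Gbp4 lie on chromosome 5 in RefSeq, and Gbp7, Gbp3 and Gbp2 on chromosome 3. All 3 measured genes on chromosome 5 passed, and on chromosome 3 only Gbp2.

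Bst2 (tetherin) holds budding viruses to the cell surface and belongs to the membrane proteins with the IFITM family, which blocks entry of viruses. Bst2 stood at 10.19, 9.52, 9.20, 8.94 and 9.53 in KO, against 7.87, 6.37, 6.77, 6.87 and 6.80 in WT. All KO values lay above all WT values, with a change of 2.54 (SE 0.28, adjusted p = 3.49e-05, limma). Ifitm2 stood at 11.74, 11.21, 11.33, 11.65 and 11.90 in KO, against 10.82, 10.61, 11.13, 10.32 and 11.00 in WT. The groups were apart by a small step, and the change was 0.79 (SE 0.18, adjusted p = 0.00618, limma). The other 5 of these 7 genes did not pass. Ifitm1, with the smallest p of them, lay at 6.89 to 7.77 in KO and 6.74 to 7.26 in WT. Ifitm3 varied widely in both groups, at 6.87 to 9.11 in KO and 6.33 to 8.73 in WT.

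Isg20, an exonuclease that degrades single-stranded RNA, stood at 9.28, 9.92, 8.88, 9.15 and 9.65 in KO, against 7.03, 7.23, 7.31, 7.30 and 7.40 in WT. All 5 KO samples were high, KO replicate 1 was not the highest, and the change was 2.12 (SE 0.18, adjusted p = 3.54e-06, limma). Isg20l2, which shares its symbol's stem, did not pass and lay at 7.54 to 7.99 in KO and 6.83 to 8.33 in WT.

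**Figure D2:**
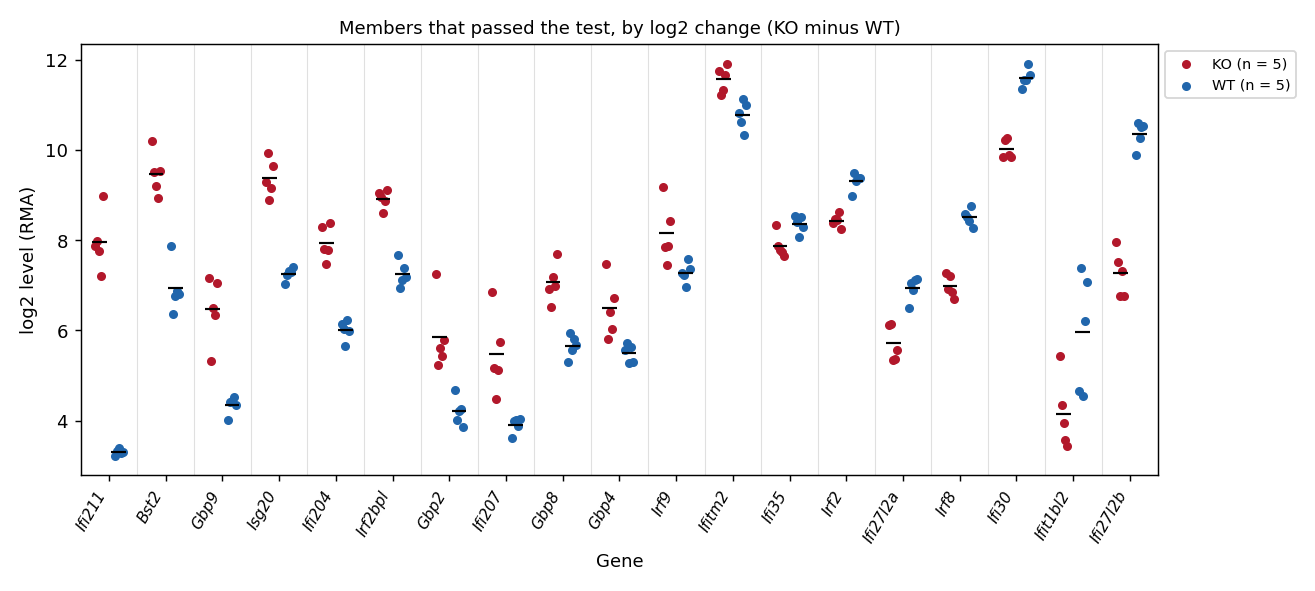
Log2 level of each of the 19 genes that passed the test, 1 point per array, with KO samples left of WT samples and a bar at each group mean, ordered by change. Ifi211 shows the widest gap among the 12 higher genes, with KO samples at 7.20 to 8.98 and WT samples at 3.22 to 3.38, and Ifi27l2b, with KO samples at 6.75 to 7.96 and WT samples at 9.88 to 10.60, the widest among the 7 lower ones.

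The interferon regulatory factors are transcription factors that switch interferon genes and their targets on or off. Of the 8 measured besides the corepressors, 1 was higher and 2 were lower in KO. Irf8, known for its role in myeloid cells, stood at 7.28, 6.91, 7.20, 6.85 and 6.70 in KO, against 8.57, 8.51, 8.43, 8.76 and 8.26 in WT. Irf2, which competes with Irf1 for its sites and often acts as a repressor, stood at 8.37, 8.47, 8.44, 8.63 and 8.24 in KO, against 8.98, 9.48, 9.32, 9.38 and 9.37 in WT. Both were lower in every KO sample than in any WT sample. The change was -1.52 for Irf8 (SE 0.14, adjusted p = 6.63e-06, limma) and -0.88 for Irf2 (SE 0.12, adjusted p = 0.000145, limma).

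Irf9, the DNA-binding partner of STAT2, stood at 9.17, 7.85, 7.44, 7.88 and 8.43 in KO, against 7.28, 7.22, 6.95, 7.57 and 7.36 in WT. The groups overlapped in 1 KO sample and the change was 0.88 (SE 0.27, adjusted p = 0.034, limma). That call was lost under 7 alternatives (adjusted p = 0.0518 to 0.126, limma), among them without KO replicate 5 and without WT replicate 1, 2, 3 or 5. Irf7, the amplifier of the type I response, did not pass. It stood at 9.58 in KO replicate 1, at 5.25 to 6.71 in the other KO samples and at 5.97 to 7.28 in WT, and its change was 0.31 with all samples and -0.36 without KO replicate 1. Irf1, Irf3, Irf4 and Irf5 did not pass either, with changes between -0.05 and 0.30. Irf3, with the smallest p among them, lay at 7.99 to 8.81 in KO and 8.06 to 8.36 in WT.

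Irf2bpl belongs to a small family named for binding Irf2 and is counted here by its symbol. It stood at 9.04, 8.96, 8.60, 8.87 and 9.10 in KO, against 7.66, 6.93, 7.11, 7.39 and 7.18 in WT. The groups were well apart, with a change of 1.66 (SE 0.15, adjusted p = 5.96e-06, limma). Irf2bp1 and Irf2bp2 did not pass, with changes of -0.04 and 0.22. Irf2bp2 lay at 9.45 to 10.29 in KO and 9.38 to 10.04 in WT.

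The Ifi27 family encodes small membrane proteins, with a known place in mitochondria for the human gene. Of the 3 measured, 2 were lower in KO and none was higher. Ifi27l2b stood at 7.96, 7.52, 6.75, 7.31 and 6.77 in KO, against 9.88, 10.60, 10.27, 10.50 and 10.52 in WT. Ifi27l2a stood at 6.12, 6.15, 5.35, 5.37 and 5.56 in KO, against 6.50, 7.05, 6.89, 7.11 and 7.13 in WT. All KO samples lay below all WT samples in both genes. The change was -3.09 for Ifi27l2b (SE 0.24, adjusted p = 1.49e-06, limma), the largest fall among the 63, and -1.23 for Ifi27l2a (SE 0.19, adjusted p = 0.000512, limma). Ifi27 lies between them on chromosome 12 and did not pass, at 4.14 to 6.36 in KO and 4.49 to 5.33 in WT. It was below the negative-control median in 3 KO and 3 WT arrays.

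Ifi30 (GILT), a lysosomal thiol reductase of antigen processing, stood at 9.85, 10.22, 10.27, 9.88 and 9.84 in KO, against 11.35, 11.55, 11.54, 11.91 and 11.65 in WT. Every KO sample was below every WT sample, with a change of -1.59 (SE 0.14, adjusted p = 3.83e-06, limma). Ifi35 stood at 8.34, 7.87, 7.78, 7.73 and 7.64 in KO, against 8.53, 8.41, 8.06, 8.52 and 8.29 in WT. KO replicate 1 lay inside the WT range, the change was -0.49 (SE 0.15, adjusted p = 0.0277, limma), and 7 alternatives lost the call (adjusted p = 0.0575 to 0.312, limma). Among them were the fits without KO replicate 3, 4 or 5 and without WT replicate 1, 2 or 4. Ifi44l did not pass and lay at 4.27 to 4.75 in KO and 4.44 to 4.66 in WT. It was below the negative-control median in 4 KO and 4 WT arrays, so little could be seen in it. Like Ifi27l2b, Ifi30 and Irf8, the mature enterocyte and Paneth cell markers were lower in every KO sample than in any WT sample. Any gene lower in KO with the groups apart shows this, and a link was not tested.

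The IFIT proteins bind viral RNA ends and are among the genes most strongly induced by type I and type III interferon. Of the 6 measured none was higher in KO and 1, Ifit1bl2, was lower. Ifit1bl2 stood at 5.44, 4.35, 3.95, 3.57 and 3.43 in KO, against 4.65, 7.38, 4.54, 6.20 and 7.08 in WT. The groups overlapped, the WT samples were widely spread, and 3 KO and 2 WT values lay below the negative-control median. Its change was -1.83 (SE 0.59, adjusted p = 0.0383, limma), and 9 alternatives lost the call (adjusted p = 0.055 to 0.0928, limma). Among them were the fits without KO replicate 2, 3, 4 or 5 and without WT replicate 2, 4 or 5.

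Ifit3 stood at 10.06 in KO replicate 1, at 5.58 to 6.21 in the other KO samples and at 4.98 to 6.08 in WT. Ifit3b stood at 9.39 there, at 4.53 to 5.58 in the other KO samples and at 4.01 to 4.96 in WT. Ifit1 stood at 8.30 there, at 4.30 to 4.80 in the other KO samples and at 4.51 to 5.10 in WT. In these genes 1 KO sample was high and the other 4 lay at or near the WT range. Of their values, 3 KO and 1 WT of Ifit1, and 2 KO and 3 WT of Ifit3b, lay below the negative-control median. The change of Ifit3 was 1.12 with all samples and 0.27 without KO replicate 1. For Ifit3b it was 1.29 and 0.40, and for Ifit1 it was 0.40 and -0.34, and none passed with or without that sample. Ifit1bl1 stood at 9.01, 7.84, 6.26, 5.73 and 5.41 in KO, against 5.42 to 6.61 in WT. Ifit2 lay at 3.79 to 5.08 in KO and 3.68 to 5.18 in WT. It was below the negative-control median in 4 KO arrays, KO replicate 1 among them, and in 4 WT arrays. Little could therefore be seen in Ifit2.

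The OAS proteins make the messenger that activates RNase L. None of the 10 measured passed the limma test, and none had an unadjusted p under 0.05. Oas2 stood at 7.57 in KO replicate 1, at 4.90 to 5.53 in the other KO samples and at 4.70 to 5.10 in WT. Oas1g stood at 8.22 there, at 6.14 to 6.50 in the other KO samples and at 6.09 to 6.34 in WT. Oas1a stood at 8.16 there, at 6.00 to 6.57 in the other KO samples and at 5.92 to 6.86 in WT. Oas1b followed the same pattern, with 7.70 in KO replicate 1, 6.18 to 6.51 in the other KO samples and 6.06 to 6.39 in WT. Oas1c, with the smallest p, lay at 6.19 to 7.03 in KO and 6.09 to 6.53 in WT. It passed when arrays were weighted (adjusted p = 0.0376, limma) and when KO replicate 3 was left out (adjusted p = 0.0252, limma). Oas1d and Oas1h were below the negative-control median on all 10 arrays.

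The Mx proteins are antiviral GTPases, Rsad2 (viperin) makes a chain-terminating nucleotide, and Cmpk2 is a nucleotide kinase encoded beside it. None of these 4 passed. Rsad2 stood at 8.05 in KO replicate 1, at 5.36 to 6.18 in the other KO samples and at 5.42 to 5.74 in WT. Mx2 stood at 7.62 there, at 5.38 to 5.92 in the other KO samples and at 5.25 to 5.74 in WT. Cmpk2 stood at 7.80 there, at 4.69 to 5.40 in the other KO samples and at 5.01 to 6.70 in WT. For Cmpk2, 2 of the other 4 KO samples lay below the lowest WT value, and its change was -0.26 with all samples and -0.81 without KO replicate 1. Mx1, the 1 gene of the 4 with an unadjusted p under 0.05, stood at 6.16, 5.40, 4.90, 4.79 and 4.79 in KO, against 4.34 to 4.94 in WT (adjusted p = 0.0886, limma).

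Isg15 is a ubiquitin-like modifier and Usp18 removes it from proteins and also restrains the type I receptor. Isg15 stood at 7.21 in KO replicate 1, at 4.63 to 5.32 in the other KO samples and at 4.36 to 5.19 in WT. Usp18 stood at 7.57 there, at 4.93 to 5.30 in the other KO samples and at 4.96 to 5.21 in WT. Neither passed the limma test or had an unadjusted p under 0.05. The change of Isg15 was 0.51 with all samples and 0.04 without KO replicate 1, and that of Usp18 was 0.60 and 0.12.

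**Figure D3:**
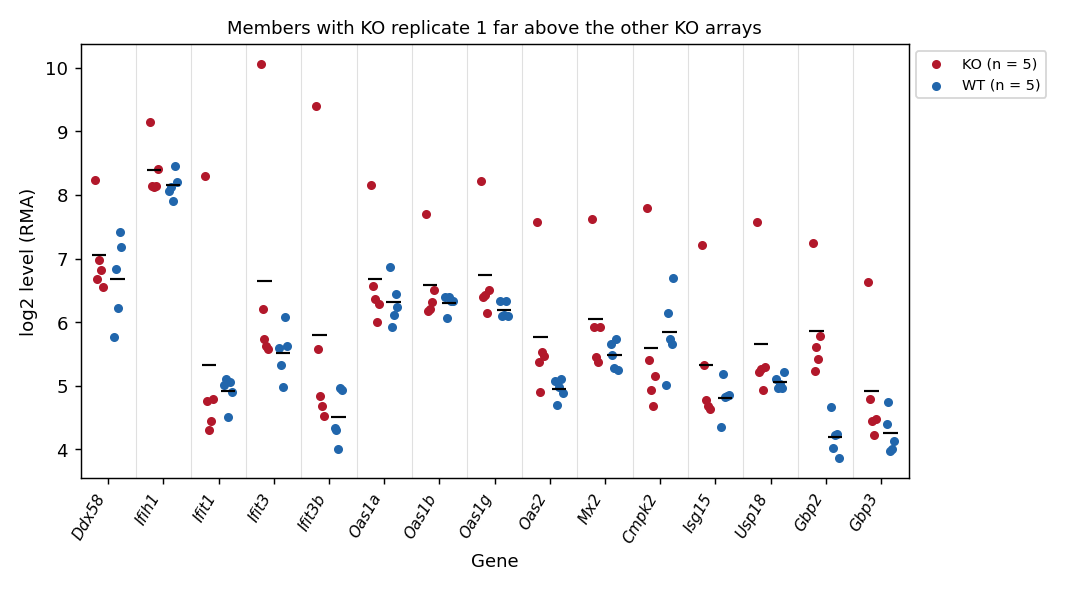
Log2 level in each array of the 15 genes in which KO replicate 1 passed Dixon's outlier ratio, with the KO samples left of the WT samples and a bar at each group mean. The lone high KO point of each gene is KO replicate 1, which for Ifit3 is at 10.06 while the other KO samples are at 5.58 to 6.21.

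The 15 genes in which KO replicate 1 passed the outlier ratio are Cmpk2, Ddx58, Gbp2, Gbp3, Ifih1, Ifit1, Ifit3, Ifit3b, Isg15, Mx2, Oas1a, Oas1b, Oas1g, Oas2 and Usp18. Only Gbp2 of these also passed the KO against WT test. Of the 11 with a promoter window, 10 held a core ISRE and 1 the κB consensus. These genes were picked by their values in 1 sample, so the shares are a description of them.

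**Figure D4:**
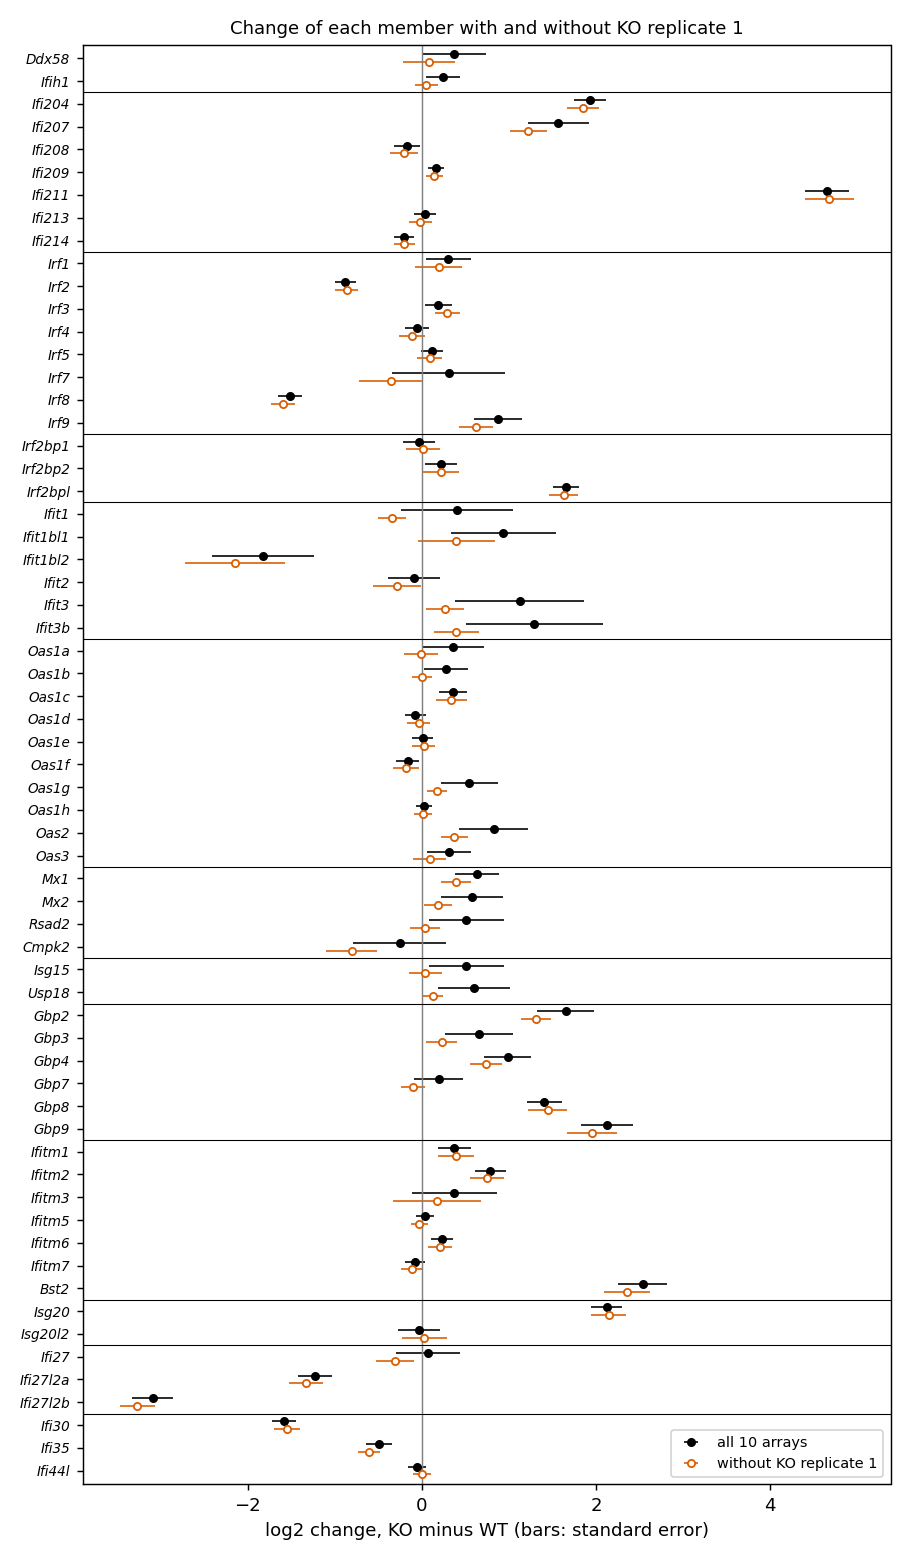
Change of each of the 63 genes (rows, by role) on the log2 scale, KO minus WT, with all 10 arrays (filled points) and without KO replicate 1 (open points), with bars for the standard error. Ifi211 and Bst2 stay far to the right of 0 both times, while Ifit3 is at 1.12 with all arrays and 0.27 without that sample, and Ifit1 at 0.40 and -0.34.

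Other genes of the interferon pathway were taken from 4 lists, with 85 of 94 genes measured. Of these, 18 (21.2%) were higher in KO, against 15.0% of all probe sets, and 6 (7.06%) lower, against 11.7%, and 61 did not pass. Without KO replicate 1, 18 were higher and 5 lower, and 20 genes passed both times. KO replicate 1 was the highest of the 10 arrays for 39 of the 85 (45.9%), against the 8.65% of all probe sets. None of the 13 interferon genes passed the limma test, and 1 had an unadjusted p under 0.05. That gene, Ifna4, lay at 3.17 to 3.55 in KO and 3.50 to 3.79 in WT, below the negative-control median on all 10 arrays, so no change in it could be seen. The same holds for Ifnk and for Ifng, the gene for interferon gamma. Ifng lay at 4.01 to 4.21 in KO and 3.82 to 4.36 in WT. Ifnb1, the gene for interferon beta, stood at 6.18 in KO replicate 1, at 5.73 to 5.98 in the other KO samples and at 5.88 to 6.37 in WT.

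Of 15 measured genes for receptors and JAK-STAT signalling, 4 (26.7%) were higher in KO and 2 (13.3%) lower, against 15.0% and 11.7% of all probe sets. Ifnar2, a chain of the type I receptor, stood at 10.57, 9.44, 9.52, 9.32 and 9.85 in KO, against 7.62, 7.92, 7.96, 7.80 and 7.98 in WT. Its change was 1.88 (adjusted p = 3.71e-05, limma), and every KO sample lay above every WT sample. Ifnar1, the other chain, changed by 0.69 (adjusted p = 0.00749, limma), Stat3 by 0.76 and Ifnlr1, the type III receptor chain, by 0.51. The groups of Ifnlr1 overlapped, at 7.71 to 8.01 in KO and 6.98 to 7.83 in WT. Ptpn2, a phosphatase that acts on JAK and STAT proteins, changed by -0.95 and the kinase gene Jak2 by -0.52. Stat2, chosen after its values were seen, stood at 9.22 in KO replicate 1, at 7.73 to 8.16 in the other KO samples and at 7.79 to 8.30 in WT.

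Of 14 measured genes of nucleic acid sensing, 3 (21.4%) were higher in KO and 2 (14.3%) lower, shares near the 15.0% and 11.7% of all probe sets. Sting1, the adaptor downstream of cytoplasmic DNA sensing, stood at 9.47, 9.51, 8.62, 8.67 and 9.17 in KO, against 6.65, 5.44, 5.98, 4.48 and 6.06 in WT. Tlr3, the endosomal receptor of double-stranded RNA, stood at 10.30, 10.13, 10.86, 10.94 and 11.09 in KO, against 8.43, 8.08, 8.21, 8.53 and 8.22 in WT. Both were higher in every KO sample, by 3.37 (adjusted p = 2.08e-05, limma) and 2.37 (adjusted p = 2.08e-06, limma), and KO replicate 1 was the highest in neither. Ikbke changed by 0.66, and Ticam1, the adaptor of Tlr3, by -0.70.

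Of 43 other measured effectors, 11 (25.6%) were higher in KO and 2 (4.65%) lower, against 15.0% and 11.7% of all probe sets. Ly6e, a surface protein that affects virus entry, stood at 13.07, 12.50, 13.22, 13.14 and 13.24 in KO, against 9.98, 7.60, 8.45, 7.42 and 8.28 in WT. Apobec3, a cytidine deaminase that restricts retroviruses, stood at 10.13 to 10.56 in KO, against 6.90 to 8.38 in WT. Slfn2, a Schlafen protein, stood at 7.68 to 8.38 in KO, against 5.43 to 5.77 in WT. The changes of these 3 were 4.69, 2.69 and 2.45, all with groups apart. Shisa5 was higher by 1.66, Plscr1 by 1.55, Herc6 by 1.31, Tor3a by 1.10, Trim21 by 0.95, Pml by 0.92 and Uba7 by 0.37. Parp12 passed narrowly (adjusted p = 0.0452, limma), at 7.86 to 9.32 in KO and 6.56 to 8.01 in WT. Of the 20 alternatives, 12 ended the call of Parp12, 9 that of Uba7, 7 that of Jak2 and 14 that of Ikbke. Leaving out KO replicate 1 was among them for each of these 4 genes, and so was leaving out KO replicate 5. Dropping KO replicate 4 did the same for Parp12 and Uba7, and dropping KO replicate 2 or 3 for Jak2 and Ikbke. Among single WT arrays, replicates 1 to 4 did so for Parp12, replicates 2, 3 and 5 for Uba7, replicates 1 and 4 for Jak2, and replicates 1, 2, 3 and 5 for Ikbke. Only the test against a 1.2-fold change ended the calls of Ifnar1 and Ticam1. That test and the fit without KO replicate 4 each ended the call of Ifnlr1.

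Samhd1, a dNTP hydrolase that limits viruses and retroelements, stood at 7.46 to 8.24 in KO, against 9.07 to 9.48 in WT, with a change of -1.61 (adjusted p = 1e-05, limma). Gvin1, a very large GTPase induced by interferon, stood at 3.54 to 4.79 in KO, against 5.74 to 6.68 in WT, with a measured change of -2.01 (adjusted p = 5.29e-05, limma). The KO values of Gvin1 lay below the negative-control median, which makes it at least 2.63-fold lower in KO. Both were lower in every KO sample. Rtp4 did not pass with all samples. It stood at 8.07 in KO replicate 1, at 4.81 to 5.47 in the other KO samples and at 4.25 to 4.66 in WT, and it passed without KO replicate 1 (measured change 0.69, adjusted p = 0.00659, limma). All WT values of Rtp4 lay below the negative-control median, against which the other 4 KO samples were at least 1.35-fold higher. Oasl2, chosen after its values were seen, likewise passed only without that sample (change 0.74, adjusted p = 0.0227, limma).

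**Figure D5:**
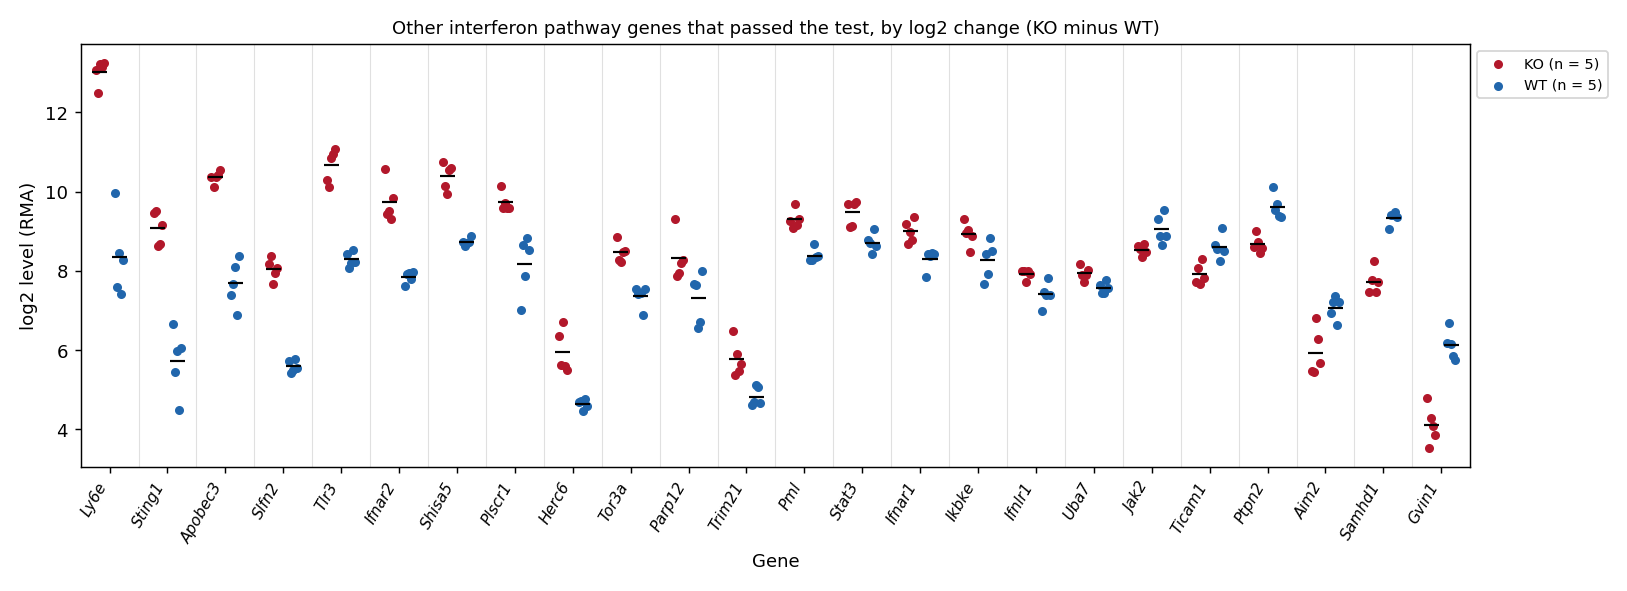
Log2 level per array of the pathway genes outside the 63 that passed the test, with KO samples left of WT samples and a bar at each group mean. Ly6e, at 12.50 to 13.24 in KO and 7.42 to 9.98 in WT, and Sting1, at 8.62 to 9.51 in KO and 4.48 to 6.65 in WT, are the widest apart among the higher genes.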

How the data were processed

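Total RNA of 5 KO and 5 WT organoid samples was hybridised to 1 Affymetrix array each, per the labels' protocols. The authors deposited log2 levels per probe set. The submitters' processing notes list RMA and limma, and no version, genome build or grouping of arrays for normalisation is given in the sources used here. RMA puts arrays on a common distribution, so only relative changes are seen, and the number of arrays limits the precision.

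Groups came from the sample titles. KO was compared with WT in limma 3.58.1 (R 4.3.3, lmFit and eBayes) on all 28846 probe sets without further scaling. P-values were adjusted by Benjamini-Hochberg over the 19572 probe sets with 1 gene symbol (6640 control and 2634 unnamed probe sets were left out, and none had several symbols). A gene passed at an adjusted p under 0.05. Where all arrays of 1 group lay below their negative-control medians, the fold is a bound against those medians. Members, roles and the other pathway lists were chosen with earlier results of these data known. All members could be named. Values per array were given for those that passed, and ranges for the uncalled member with the smallest p in each role. Of the pathway lists, each gene that passed and up to 4 others with the smallest p could be named, beside the targeted and Y-linked genes. Genes high in KO replicate 1 were named after their values were seen, and so was Ifng, for its low level.

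All 63 members were matched to RefSeq by gene ID. Motifs were sought by letters in RefSeq promoter windows. On simulated levels, limma called 36% of the genes set to change by 0.5 log2 units, 76% of those at 1, 98% at 2 and 100% at 4. There were 5 false calls among 160. The simulated noise was normal and independent between probe sets, and only 200 of 19572 were changed. Far more were called in the real data, so these rates need not hold there.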

Additional observations from a re-analysis of the deposited data

Results flagged for a closer look

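In 27 cases the highest or lowest sample of a group of 5 lay beyond Dixon's 95% ratio of 0.71, which chance alone passes in about 1 of 20 groups. Of the interferon-induced families, 126 groups were examined and 16 passed. The other 11 cases came from the pathway genes named here and not from all 85. Over all 85, the highest KO sample passed the ratio in 13 genes (15.3%). KO replicate 1 was the high sample in 21 of the 27. Among the family members its ratio was 0.876 for Ifit1, 0.860 for Usp18, 0.859 for Ifit3, 0.828 for Oas1g, 0.784 for Ifit3b, 0.780 for Oas1b and 0.772 for Cmpk2. It was 0.767 for Gbp3, 0.762 for Oas2, 0.760 for Mx2, 0.743 for Ddx58, 0.739 for Oas1a, 0.732 for Isg15, 0.725 for Gbp2 and 0.721 for Ifih1. Among the other pathway genes it was 0.810 for Dhx58, 0.799 for Rtp4, 0.766 for Plscr1, 0.752 for Oasl2, 0.719 for Parp12 and 0.712 for Stat2. Dhx58, a RIG-I-like helicase, stood at 7.16 in KO replicate 1, at 5.53 to 5.84 in the other KO samples and at 5.65 to 6.12 in WT.

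The remaining 6 cases were low samples spread over 5 arrays. KO replicate 2 was low for Ly6e (0.770) and KO replicate 3 for Ifnlr1 (0.718). WT replicate 1 was low for Ifnar1 (0.898) and Samhd1 (0.712), WT replicate 2 for Oas1b (0.802) and WT replicate 4 for Tor3a (0.825).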

How the results depend on the processing

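Across 20 alternatives, 10 to 13 of the 63 genes passed as higher and 5 to 7 as lower in KO, and 15 of the 19 genes that passed did so under each alternative that tested them. Ifi207 was not tested when the dimmest 25% of probe sets were left out. Gbp4 lost its call only under the test against a 1.2-fold change (adjusted p = 0.065, limma), which by its construction calls fewer genes: 1772 of all probe sets were then higher and 1262 lower, against 2928 and 2296. That test also ended the calls of Ifi35, Ifit1bl2 and Irf9, and centring on the 75th percentile ended that of Irf9. Leaving out 1 array at a time gave 11 to 13 higher and 5 to 7 lower genes of the families, 15 to 20 and 5 to 6 of the other pathway genes, and 2475 to 2935 and 1855 to 2310 of all probe sets. Without KO replicate 1 the change reversed for several uncalled genes, among them Ifi27 (-0.31) and Gbp7 (-0.10). Among the 58 genes followed across the alternatives, it reversed for Ifit1 (-0.34), Irf7 (-0.36), Oas1a (-0.0083), Stat2 (-0.17) and Dhx58 (-0.25). Without WT replicate 5 the change of Dhx58 was -0.01. With 1 array left out, the changes ran from -0.34 to 0.66 for Ifit1, -0.36 to 0.73 for Irf7 and -0.0083 to 0.53 for Oas1a. They ran from -0.17 to 0.20 for Stat2 and -0.25 to 0.16 for Dhx58, and none of these genes passed with all arrays. Symbols with looser prefixes gave 71 genes, with the same 12 and 7 counts. KO and WT samples share replicate numbers, but the deviations of same-numbered samples correlated at only -0.07 to 0.36, and 2 of 5 KO samples correlated best with their own number. With the replicate number as a block, 12 genes were higher and 6 lower, Ifit1bl2 losing its call, 18 and 6 of the other pathway genes passed, and 2739 and 2174 of all probe sets were called. Loess and 75th percentile scaling moved the median of all genes by -0.02 and -0.03. Levels below the negative-control median limit what could be seen. Of the 63 genes, 4 were below it on all 10 arrays and 38 were above it on all 10.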
